A study of Mus musculus with 4 samples.

Results

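Transcripts of 37 genes of homologous recombination, of the Fanconi anemia pathway and of DNA damage checkpoint signalling were followed in mouse cells recovered from the marrow after transplantation. The genes were chosen by symbol, and all 37 are among the 23284 symbols of the deposited tables. EGFP+ cells had been sorted a second time from the bone marrow of wild-type recipients 24 h after a transplant of 100000 LSK cells (Lin- Sca1+ c-Kit+, a sort that enriches for stem cells and early progenitors) from CAG-EGFP mice, in which the ubiquitous CAG promoter drives EGFP. Control recipients were left untreated, and 5-FU recipients had been given 5-fluorouracil (5-FU) intravenously at 200 mg/kg 2 days before the transplant. The donor cells were not given the drug themselves, as far as the labels say, and there were 2 libraries per group. They are labelled as biological replicates and are called control libraries 1 and 2 and 5-FU libraries 1 and 2 after their replicate numbers. The p-values rest on the spread between these few libraries, with the spread of each gene drawn toward that of genes of similar level.

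Homologous recombination repairs a double-strand break by copying an intact sister DNA molecule, so it serves cells in S and G2 phase. The broken ends are resected to single strands, a recombinase is loaded on them by mediators such as BRCA2, and the joined molecules are later separated. The Fanconi anemia pathway removes crosslinks between the DNA strands: a core complex attaches ubiquitin to FANCD2 and FANCI, and recombination completes the repair. ATM and ATR are the kinases that signal damage, through CHEK2 and CHEK1 respectively, and hold the cell cycle. Loss of the Fanconi pathway causes bone marrow failure, and hematopoietic stem cells are known to depend on it.

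Several of these genes are textbook targets of the E2F factors, which drive S phase genes, so the promoters of the members were read first. The RefSeq promoter table of GRCm38.p6, which gives 300 bases per promoter (250 before the start and 50 after it), matched 29 of the 37 members. Forms of the E2F motif were searched on both strands, namely TTCCCGC as the usual form, and TTGGCGC as well as TTCGCGC along with TTGCCGC as variants, and a promoter with several or overlapping matches was counted once. Such letters occurred in the promoters of 18 of 29 members (62.1%), against 10.9% of all 27025 genes with a promoter in the table and 19.7% of the 8255 among them that were tested here. The median GC content was 59.7% in the members' promoters, 60.7% in those of the tested genes and 52.8% in all. CCAAT, the letters read by NF-Y, occurred in 62.1% of the members and 43.3% of the tested genes, and TTTGAA or TTCGAA, forms of the CHR element of G2 and M phase genes, in 10.3% and 16.4%. A match is a description of the letters and does not show that a factor binds.

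The windows below show the E2F letters in capitals as they stand on the gene's strand, 5′ to 3′, in the 7 members that both carry a match and rose after transfer into 5-FU recipients, followed by Chek2 and Atm, which carry a match and did not pass the test. Positions count from the start base of the promoter table, taken as 0. The table can list several starts for a gene, and a start can lie inside the gene interval that RefSeq gives as a whole, so that a window before the start, as in Blm and Topbp1, can overlap that interval. In Topbp1 a second match at -129 overlaps the first, and the capitals cover both.
Brca1, position 21, chr11:101551916-101551945, minus strand: gctagcgctagGCGCCAAgcggccggtttc
Blm, position -142, chr7:80535122-80535151, minus strand: aatcatccttcTTGCCGCgcagagcgtgcg
Rad51ap1, position 12, chr6:126939557-126939586, minus strand: tctggttttcgGCGGGAAttgaaaccgcca
Fancb, position -172, chrX:164980409-164980438, plus strand: ccggggtagagGCGGGAAtaagtgctctgc
Ube2t, position -159, chr1:134962395-134962424, plus strand: acaagaccacaGCGGGAActgagaattccg
Chek1, position 43, chr9:36726609-36726626, minus strand: agcaggttttgGCGGGAA
Topbp1, position -132, chr9:103305184-103305213, plus strand: cgtccgctcggTTGGCGCGAAagtcggttc
Chek2, position -152, chr5:110839820-110839849, plus strand: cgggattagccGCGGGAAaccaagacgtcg
Atm, position 15, chr9:53536638-53536667, minus strand: tagagccggaaGCGGGAAggcgtgcgtaca

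The form TTCCCGC, read here on the reverse strand as GCGGGAA, stood in 6 of these 9 windows and in genes with either outcome. Among the 9 members with a promoter that rose, 7 carried an E2F match (77.8%), and among the 19 that did not pass the test 10 did (52.6%). Xrcc3 and Eme1 rose without a match, and H2afx and Rad54b rose but had no promoter in the table. Chek2 and Atm are only part of those 10, and the difference between the shares was not tested. The promoter of Ube2t also held another E2F match, which overlaps 1 of 3 CCAAT boxes, and is shown from -174 to -21 (chr1:134962391-134962544, plus strand) with E2F and CCAAT letters in capitals.
Ube2t: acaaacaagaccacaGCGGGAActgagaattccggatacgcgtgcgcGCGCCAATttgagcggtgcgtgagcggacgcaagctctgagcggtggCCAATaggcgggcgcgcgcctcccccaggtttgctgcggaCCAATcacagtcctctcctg
In Fancb, shown from -216 to -151 (chrX:164980376-164980441, plus strand), a CCAAT box stood upstream of the E2F letters.
Fancb: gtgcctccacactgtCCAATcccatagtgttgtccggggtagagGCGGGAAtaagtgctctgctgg

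The values are FPKM (fragments scaled by transcript length and by the number of mapped reads), and they can be compared between genes because they are per length. Low values moved in steps of whole reads once about 200 to 220 bases were taken off the transcript length. From these steps 1 read in 1 kb of this shortened length was worth 0.131 and 0.125 FPKM in control libraries 1 and 2. In 5-FU libraries 1 and 2 it was worth 0.106 and 0.0990 FPKM. The cells are labelled as stem and progenitor cells, and all 12 markers of these were above 0 in every library, with summed FPKM of 424.7 to 535.9 in control and 465.5 to 647.3 in 5-FU libraries. Of these 12 markers 5 were higher and 4 lower in both 5-FU libraries. The sort markers themselves differed: Kit had 102.8 and 65.5 FPKM in control against 66.2 and 69.5, with overlapping groups, and Ly6a, which encodes Sca1, had 18.7 and 17.0 against 32.5 and 54.0. Macrophage markers were far higher: all 14 were above 0 in every library, and they summed to 24153 and 28286 FPKM in the control libraries and 21080 and 10951 in 5-FU libraries 1 and 2. Of these 14 markers 10 were lower in both 5-FU libraries, 1 (Marco) was higher and the rest overlapped. Erythroid markers summed to 810.2 and 1156 FPKM in control against 162.7 and 208.5, with all 10 lower. Granulocyte markers summed to 12606 and 9795 against 3632 and 3457, with 9 lower and 1 (Cxcr2) higher. Early granulocyte and monocyte markers summed to 257.8 and 515.8 FPKM against 287.2 and 259.6. Of these 6 markers 3 were lower in both 5-FU libraries and 2, Ctsg and Ccr2, were higher. B cell markers summed to 357.0 and 362.7 FPKM against 199.3 and 158.5, with Pax5 at 0 in both control libraries and Igll1 at 0 in both 5-FU libraries. Those of T and NK cells summed to 111.1 and 94.1 against 186.9 and 317.2, most of it Nkg7 (108.9 and 91.1 against 184.3 and 313.7), while Cd3e was at 0 in both 5-FU libraries. The 10 handling and immediate early genes, which respond to cell isolation, summed to 1494 and 1450 FPKM against 699.0 and 528.2, and 8 of them were lower and 0 higher in both 5-FU libraries. In such a bulk library fewer cells of a type and less RNA per cell cannot be told apart, and the part of these differences in the results below was not tested.

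The members were low in abundance and spread over a wide range. All 37 were above 0 in every library, and their median was 5.84 and 3.83 FPKM in control libraries 1 and 2 and 6.98 and 9.45 in 5-FU libraries 1 and 2. The lowest control value was 0.142 for Rad51c and the highest 69.9 for H2afx. In 5-FU libraries the range was 0.932 (Rad51c) to 289.6 (H2afx).

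Groups were compared with limma on log2(FPKM + 1), over the 11496 genes with at least 1 FPKM in 2 of the 4 libraries, with p adjusted over all of them and a threshold of 0.05. Because 1 is added, a log2 fold change understates the change of low genes. Of the 37 members 36 were tested, and Rad51c was not. Bard1 passed the filter through its 5-FU values alone, so that it had to be higher there. In 5-FU libraries 11 members rose: Brca1, Blm, Rad51ap1, Xrcc3, Rad54b, Fancb, Ube2t, Chek1, Topbp1, H2afx and Eme1. Over all tested genes 8.23% rose. The count of 11 was 1 without either control library, 12 to 19 without either 5-FU library, and 0 of 37 by limma when low genes were not filtered out (19 higher and 1 lower at an unadjusted p under 0.05). None of the members fell by limma (1 had an unadjusted p under 0.05), where 4.67% of all tested genes fell. At an unadjusted p under 0.05, 1948 of the 11496 tested genes were higher and 1659 lower. When low genes were not filtered out, these were 1946 and 1734 of 16391. The median log2 fold change was 0.87 over the 36 tested members and −0.01 over all tested genes. Both 5-FU libraries lay above both control libraries for 24 of the 37 members and below them for 3, and the groups overlapped for 10. The count above was 23 among the 36 tested members, against 31.4% of all tested genes, and 30.7% of all tested genes lay below.

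**Figure D1:**
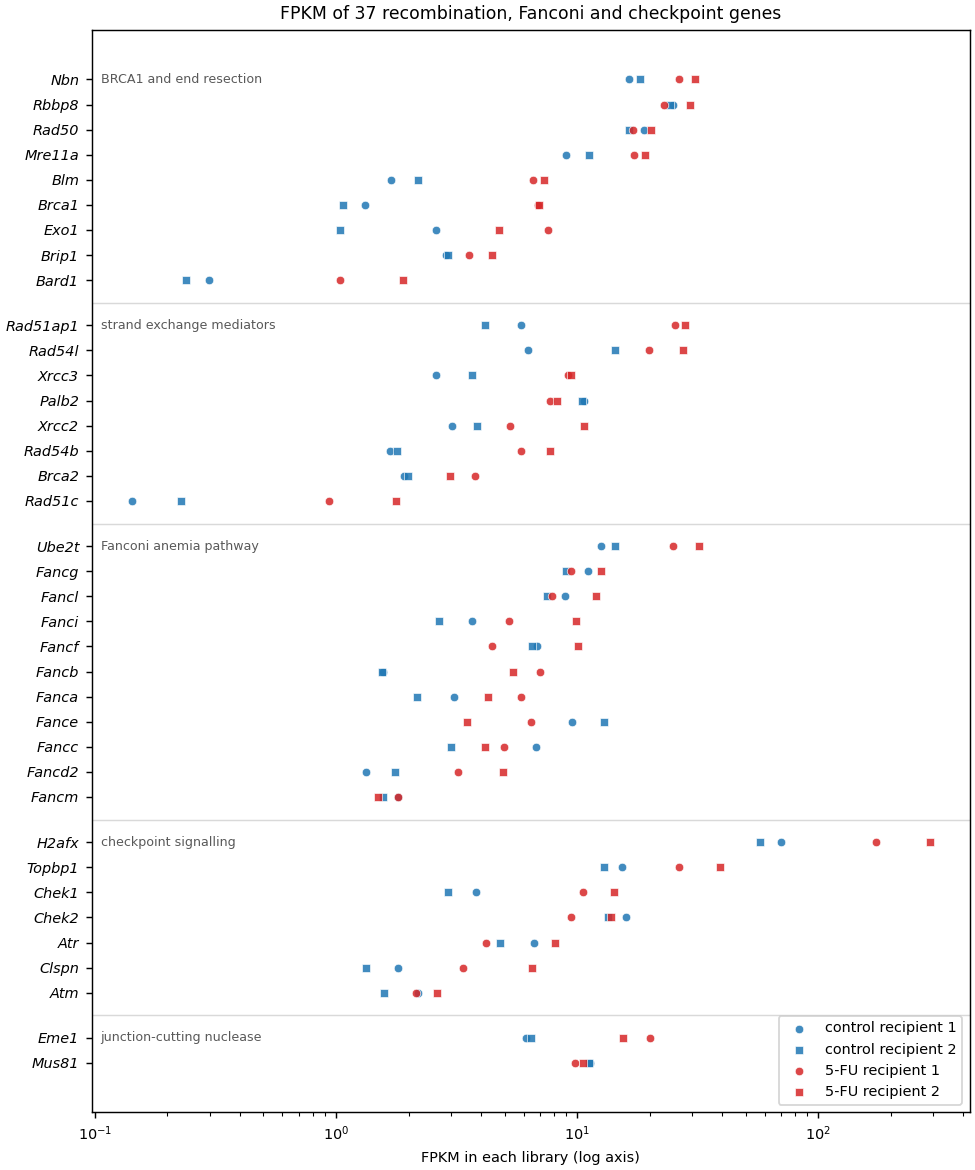
FPKM (log axis) of each of the 37 members in every library, grouped by role, with control libraries in blue and 5-FU libraries in red. Recipient numbers in the plot are the replicate numbers of the libraries. In 24 members both red points lie right of both blue points, from Rad51c at the low end to H2afx at the high end.

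Among the genes of BRCA1 and of end resection, Brca1 and Blm rose. Brca1 encodes the ubiquitin ligase subunit that promotes resection and recombination (chromosome 11, 101488761 to 101551955, GRCm38.p6 as for all positions here). It had 1.31 and 1.07 FPKM in control libraries 1 and 2 and 6.85 and 6.96 in 5-FU libraries 1 and 2. The groups were well apart and the 5-FU libraries nearly equal, with means of 1.19 ± 0.173 and 6.91 ± 0.0762 (SD, n = 2 and 2), a log2 fold change of 1.85 (SE 0.29) and an adjusted p of 0.014. Blm, the RecQ helicase mutated in Bloom syndrome (chromosome 7, 80454993 to 80535148), had 1.69 and 2.2 FPKM in the control libraries and 6.58 and 7.28 in the 5-FU libraries. It rose by 1.43 on the log2 scale (SE 0.29, adjusted p = 0.024).

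The partners of BRCA1 were less even. Bard1, which forms the ligase together with BRCA1, had 0.298 and 0.239 FPKM in the control libraries and 1.04 and 1.90 in the 5-FU libraries. Both 5-FU values were higher, but the control values rest on about 12.4 and 10.4 reads, and the adjusted p was 0.11. Brip1, the helicase also known as FANCJ, had 2.86 and 2.92 against 3.55 and 4.43 FPKM (adjusted p = 0.45). The resection nuclease gene Exo1 had 2.6 and 1.04 FPKM in the control libraries and 7.56 and 4.74 in the 5-FU libraries, a log2 fold change of 1.37 with an SE of 0.39 that did not pass (adjusted p = 0.057). Rbbp8, which encodes CtIP, the starter of resection, was the most abundant gene of this role in control cells and lay at 24.9 and 24.3 against 22.8 and 29.4 FPKM, with overlapping groups (log2 fold change 0.07, 95% interval −0.44 to 0.58).

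MRE11, RAD50 and NBN form the complex that binds broken ends and calls ATM to them. Mre11a had 9.03 and 11.2 FPKM in the control libraries and 17.2 and 19.1 in the 5-FU libraries, and Nbn had 16.4 and 18.2 against 26.4 and 30.7. The groups did not overlap for either gene, with log2 fold changes of 0.79 (SE 0.24, adjusted p = 0.066) and 0.69 (SE 0.21, adjusted p = 0.071), so neither passed. Rad50 had 18.9 and 16.4 FPKM against 17.1 and 20.2, and its groups overlapped.

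Among the genes of strand exchange, Rad51ap1, Rad54b and Xrcc3 rose. Rad51ap1, whose product stimulates strand pairing by the recombinase (chromosome 6, 126923415 to 126939621), had 5.84 and 4.16 FPKM in the control libraries and 25.4 and 27.9 in the 5-FU libraries. It rose by 2.22 on the log2 scale (SE 0.26, adjusted p = 0.0079), with means of 5.00 ± 1.19 and 26.7 ± 1.77 FPKM. Rad54b, a DNA translocase of recombination (chromosome 4, 11558920 to 11615808), had 1.68 and 1.80 FPKM in the control libraries and 5.85 and 7.70 in the 5-FU libraries, a rise of 1.5 (SE 0.30, adjusted p = 0.023). Its annotated exons share 35.8% of their bases with those of Fsbp on the same strand, so its value is uncertain. Xrcc3, a paralog of the recombinase (chromosome 12, 111803192 to 111813893), had 2.59 and 3.68 FPKM against 9.20 and 9.45 and rose by 1.33 (SE 0.29, adjusted p = 0.027).

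Of the remaining members of this role, all but Palb2 were higher in both 5-FU libraries, and none passed the test. Rad54l, the main translocase, was uneven between the control libraries, at 6.25 and 14.3 FPKM, and had 19.9 and 27.6 in 5-FU libraries (log2 fold change 1.21, SE 0.37, adjusted p = 0.069). Xrcc2, another paralog, had 3.03 and 3.83 FPKM against 5.25 and 10.7 (adjusted p = 0.12). Rad51c, the paralog that also counts as a Fanconi gene, had 0.142 and 0.228 FPKM in control, which is about 1.55 to 6.79 reads depending on the library and the transcript, and 0.932 and 1.78 in 5-FU libraries. It did not reach the filter, and its control level was too low to measure a fold. Brca2, which loads the recombinase, had 1.91 and 1.99 FPKM against 3.76 and 2.98 (log2 fold change 0.56, SE 0.30, adjusted p = 0.24). Palb2, which links BRCA1 to BRCA2, was 1 of the 3 members lower in both 5-FU libraries, at 10.6 and 10.5 against 7.71 and 8.25 FPKM, and did not pass (log2 fold change −0.36, SE 0.25, adjusted p = 0.35).

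Within the Fanconi anemia pathway 2 of 11 members rose, or 18.2%, against 8.23% of all tested genes. The median log2 fold change of the 11 was 0.23, against −0.01 over all tested genes. The 2 that rose were Fancb of the core complex and Ube2t, the ubiquitin-conjugating enzyme that works with it. Fancb, an X-linked gene (chromosome X, 164980480 to 164997272), had 1.56 and 1.55 FPKM in the control libraries and 6.98 and 5.44 in the 5-FU libraries, a rise of 1.49 (SE 0.30, adjusted p = 0.023). Ube2t (chromosome 1, 134962565 to 134974180) had 12.6 and 14.4 FPKM against 25.0 and 32.0, a rise of 1.02 (SE 0.23, adjusted p = 0.031). It was the most abundant member of the pathway in every library.

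No other gene of the core complex passed the test. Fancl, the ligase subunit that UBE2T serves, had 8.89 and 7.51 FPKM in the control libraries and 7.89 and 12 in the 5-FU libraries, and Fancg had 11.1 and 8.96 against 9.41 and 12.5. Fancf had 6.85 and 6.50 FPKM against 4.46 and 10.1, so the 5-FU libraries lay on either side of the control pair. Fancc had 6.76 and 2.99 against 4.99 and 4.16, and Fancm, the DNA-binding translocase that anchors the complex, 1.81 and 1.57 against 1.80 and 1.49. The groups overlapped for these 5 genes. Fanca, the gene most often mutated in patients, had 3.09 and 2.17 FPKM against 5.85 and 4.25 and did not pass (log2 fold change 0.74, SE 0.32, adjusted p = 0.16).

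Fance, which joins the core complex to FANCD2, went the other way. It had 9.50 and 12.9 FPKM in the control libraries and 6.41 and 3.51 in the 5-FU libraries, a log2 fold change of −1.06 (SE 0.33) that did not pass with all libraries (adjusted p = 0.072) and passed without 5-FU library 1, at −1.42 (adjusted p = 0.0066). The 2 substrates of the complex were higher in both 5-FU libraries. Fancd2 had 1.34 and 1.75 FPKM against 3.22 and 4.95 (log2 fold change 0.98, SE 0.33, adjusted p = 0.087), and Fanci had 3.66 and 2.67 against 5.20 and 9.87 (log2 fold change 0.99, SE 0.36, adjusted p = 0.10). Exons of Fanci share 16.0% of their bases with Polg on the opposite strand.

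**Figure D2:**
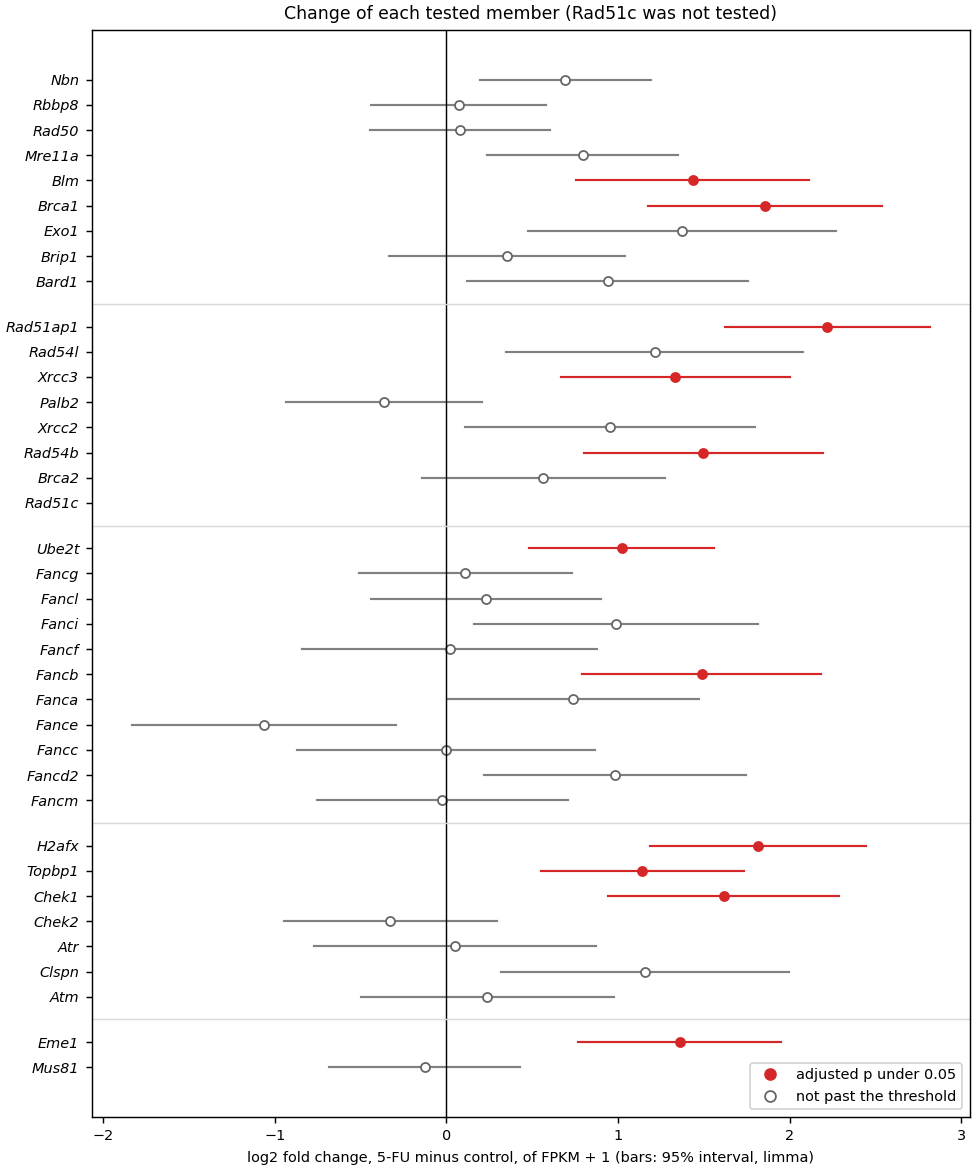
Change of the 36 tested members, as log2 fold change of FPKM + 1 (5-FU minus control) with 95% intervals from limma, in the order of the plot of FPKM. Filled red points mark the 11 members with an adjusted p under 0.05, which lie between 1.02 and 2.22; Fance lies lowest at −1.06.

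In checkpoint signalling 3 of 7 members rose, H2afx, Chek1 and Topbp1, or 42.9% against 8.23% of all tested genes. H2afx, the histone variant phosphorylated around breaks (chromosome 9, 44334715 to 44336077), was the most abundant member, with 69.9 and 57.1 FPKM in the control libraries and 174 and 289.6 in the 5-FU libraries. It rose by 1.81 (SE 0.27, adjusted p = 0.013), and 5-FU library 2 was the higher. Chek1, the kinase that ATR activates (chromosome 9, 36708482 to 36726658), had 3.80 and 2.91 FPKM against 10.6 and 14.2, a rise of 1.61 (SE 0.29, adjusted p = 0.018). Topbp1, the activator of ATR (chromosome 9, 103305167 to 103350428), had 15.3 and 12.9 against 26.5 and 39.1 FPKM and rose by 1.14 (SE 0.25, adjusted p = 0.030).

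Clspn, claspin, which brings CHEK1 to ATR, had 1.80 and 1.34 FPKM in the control libraries and 3.35 and 6.47 in the 5-FU libraries (log2 fold change 1.16, SE 0.36, adjusted p = 0.073). The genes of the kinases ATR and ATM had overlapping groups. Atr had 6.60 and 4.81 FPKM against 4.17 and 8.12 (log2 fold change 0.05, 95% interval −0.77 to 0.87), and Atm had 2.18 and 1.58 against 2.14 and 2.63 (0.24, −0.50 to 0.97). Chek2, the kinase downstream of ATM, had 15.9 and 13.4 FPKM against 9.46 and 13.8 (−0.33, −0.95 to 0.30).

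MUS81 and EME1 form the nuclease that cuts branched DNA. Eme1 (chromosome 11, 94644972 to 94653836) had 6.12 and 6.45 FPKM in the control libraries and 20.1 and 15.5 in the 5-FU libraries and rose by 1.36 (SE 0.25, adjusted p = 0.019). Mus81, the catalytic subunit, had 11.3 and 11.2 FPKM against 9.79 and 10.6 (log2 fold change −0.13, 95% interval −0.68 to 0.43). Exons of Eme1 share 8% of their bases with Lrrc59 and 2.72% with Mrpl27 on the opposite strand. Those of Mus81 share 4.85% with Efemp2 on the opposite strand.

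Ratios within a library show how genes that work together stood to each other, and they do not depend on the scaling between libraries. Eme1 stood at 0.542 and 0.578 of Mus81 in control libraries 1 and 2 and at 2.05 and 1.47 of it in 5-FU libraries 1 and 2. Its FPKM were thus below those of Mus81 in both control libraries and above them in both 5-FU libraries. Chek1 went from 0.239 and 0.217 of Chek2 to 1.12 and 1.03 of it. Brca1 went from 0.124 and 0.102 of Palb2 to 0.889 and 0.844.

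Smaller shifts appeared in the end-binding and ubiquitin-transfer pairs. Mre11a was at 0.479 and 0.680 of Rad50 in control and at 1.01 and 0.943 in 5-FU libraries, and Ube2t at 1.41 and 1.91 times Fancl and then 3.16 and 2.67 times. Pairs whose groups overlapped were Brca1 to Bard1 (4.41 and 4.48, then 6.60 and 3.66), Fancd2 to Fanci (0.366 and 0.657, then 0.619 and 0.501), Xrcc2 to Xrcc3 and Fance to Fancf. The groups lay apart for 12 of the 16 pairs compared, which were chosen with earlier results known. Of these 12, Clspn to Chek1 (0.474 and 0.460, then 0.317 and 0.456) and Rad54l to Rad54b (3.73 and 7.955, then 3.40 and 3.58) were lower in both 5-FU libraries. The others were higher there, and the share among other pairs of genes was not counted. With 2 libraries against 2, a two-sided exact permutation test cannot go below p = 0.333, so no ratio was shown to differ.

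**Figure D3:**
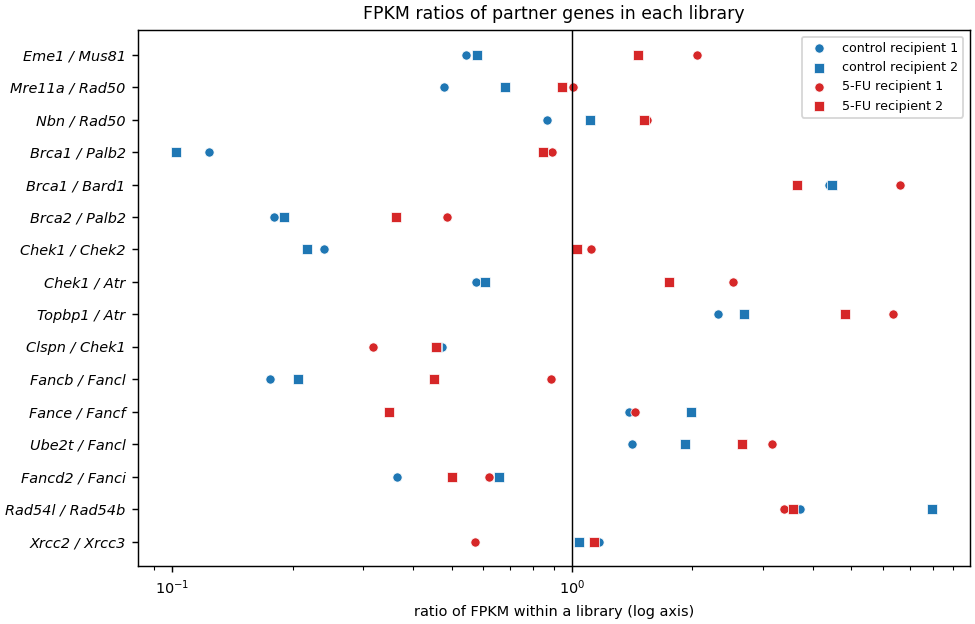
Ratio of the FPKM of 2 genes within each library (log axis; line at equal FPKM) for 16 pairs of genes that share a complex or a signalling step. The red 5-FU points of Eme1 to Mus81 lie at 1.47 and 2.05, right of the line, and the blue control points at 0.542 and 0.578, left of it.

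Related genes from lists beyond the members were counted in the same fit. Counts at an unadjusted p under 0.05 are given beside those of limma with adjustment. Over all 11496 tested genes 1948 were higher and 1659 lower unadjusted, against 946 and 537 with adjustment. With no filter on low genes, 0 genes of any of these lists passed by limma. Of 32 tested further recombination genes 9 rose and none fell (13 and 2 unadjusted), with a median log2 fold change of 0.38. Without either control library 1 of them passed, and without 5-FU library 1 there were 14 higher and 1 lower. Psmc3ip, which encodes the recombination cofactor HOP2, had 8.69 and 7.05 FPKM in the control libraries and 30.8 and 38.5 in the 5-FU libraries and rose by 2.00 (SE 0.24, adjusted p = 0.0085). Rpa1, the large subunit of the single-strand binding protein, had 32.6 and 31.1 against 70.6 and 71.0 FPKM, and Dna2, a resection nuclease and helicase, 5.42 and 4.09 against 15.6 and 14.5.

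Of 15 further Fanconi genes 4 rose and none fell (7 and 0 unadjusted), with a median of 0.48. The count was 2 under quantile scaling (median 0.30) and without a trend, and 0 without either control library. These included Rad18, a ubiquitin ligase of damage tolerance, at 7.30 and 8.46 FPKM in the control libraries and 23.1 and 20.4 in the 5-FU libraries, and C230052I12Rik, which the reference lists as Faap24, a partner of FANCM, at 7.33 and 8.48 against 19.5 and 19.9. Apitd1, a histone-fold protein of the same branch and of the centromere, had 7.39 and 12 FPKM against 21.3 and 51.3.

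Of 24 further checkpoint genes 10 rose and none fell (15 and 0 unadjusted), with a median of 0.85. Without control library 1 the count was 0, and without control library 2 it was 1. Cdc25c, the phosphatase that CHEK1 restrains, had 1.5 and 3.32 FPKM in the control libraries and 12.5 and 11.5 in the 5-FU libraries and rose by 1.98 (SE 0.34, adjusted p = 0.016). Tipin of the fork protection complex rose by 1.67 (SE 0.28) and Rfc4 of the clamp loader by 1.61 (SE 0.26).

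End joining, the other route of break repair, had a median near that of all genes. Of 16 tested end joining genes 2 rose, Parp1 and Lig3, which serve the alternative route and base repair, and none fell by limma (3 and 3 unadjusted). Neither passed under quantile or TPM scaling, without a trend or without either control library. The count was 4 higher and 1 lower without 5-FU library 1, and 1 higher and 1 lower without 5-FU library 2. The median log2 fold change was 0.04. Parp1 had 34.8 and 22.6 FPKM in the control libraries and 54.1 and 64.8 in the 5-FU libraries, and Lig3 5.94 and 4.04 against 10.8 and 12.5. Nhej1, which encodes XLF of classical end joining, had 13.3 and 7.85 FPKM against 2.34 and 5.62 and did not pass (log2 fold change −1.26, SE 0.41, adjusted p = 0.078).

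Genes of the cell cycle moved in the same direction over the same libraries. Of 28 reference genes of S, G2 and M phase 21 rose and none fell (25 and 0 unadjusted), with a median of 1.32, and 10 of the 36 tested members lay above that median. Without either control library 8 of the 28 rose. Mki67, the Ki-67 antigen, had 9.54 and 8.64 FPKM in the control libraries and 26.4 and 36.5 in the 5-FU libraries. Top2a, the mitotic topoisomerase, had 17.6 and 19.6 against 78.3 and 91.8, and Ccnb1, cyclin B1, 9.51 and 15 against 56.2 and 87.1. Pcna, the replication clamp, had 158 and 133.1 against 214.2 and 272.8 FPKM and did not pass (adjusted p = 0.061). The part of the share of cycling cells in the members' rises was not tested. The macrophage genes Csf1r and C1qa had 204.3 and 225.6 against 116.4 and 67.2, and 1067 and 1178 against 994.9 and 594.2.

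**Figure D4:**
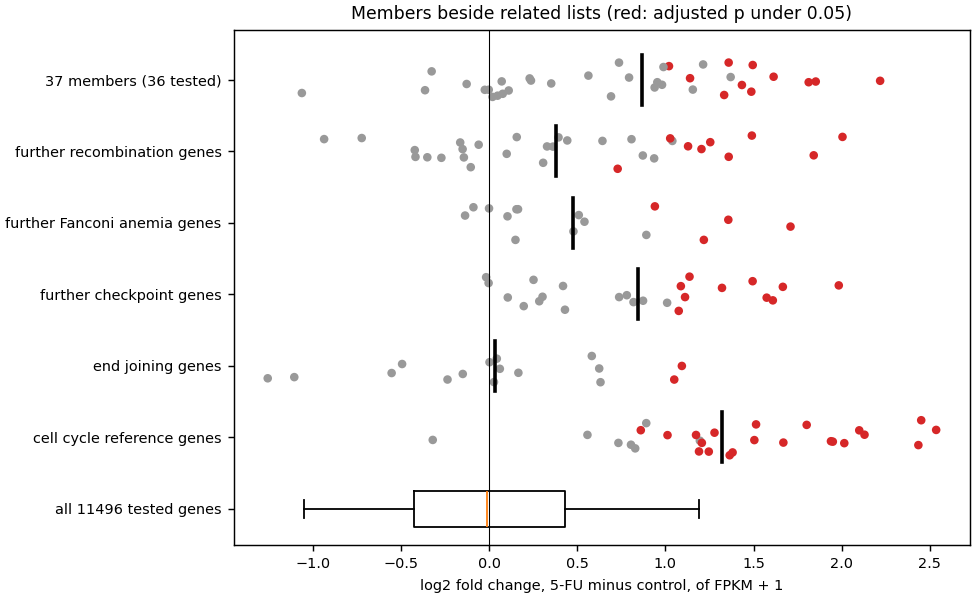
log2 fold change (FPKM + 1, 5-FU minus control) of each tested gene in the members and in 5 related lists; red points passed an adjusted p of 0.05, thick bars are medians, vertical scatter is random, and the box shows the quartiles of all tested genes with whiskers at the percentiles 5 and 95. The median was 0.87 for the members, 1.32 for cell cycle genes and 0.04 for end joining genes.

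Within the 5-FU group 29 of the 37 members were higher in library 2 than in library 1. Within the control group 23 of the 37 were higher in library 1 than in library 2. The FPKM of all genes also summed to more in 5-FU library 2, at 762107 against 678270 in 5-FU library 1. The share of all genes that were higher in either library of a group was not counted, so these counts do not set the members apart. Macrophage markers summed to 21080 FPKM in 5-FU library 1 and 10951 in 5-FU library 2. Of the 11 members that rose, 9 were higher in 5-FU library 2, and Fancb and Eme1 were higher in 5-FU library 1. The count of members that rose depended on which library was used. Without control library 1 or 2 only Rad51ap1 passed, without 5-FU library 1 there were 19 higher and 1 lower (Fance), and without 5-FU library 2 there were 12, with the lone library taken to vary like the other group. Both 5-FU values lay above both control values for all 11, so their direction could not turn in these fits.

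**Figure D5:**
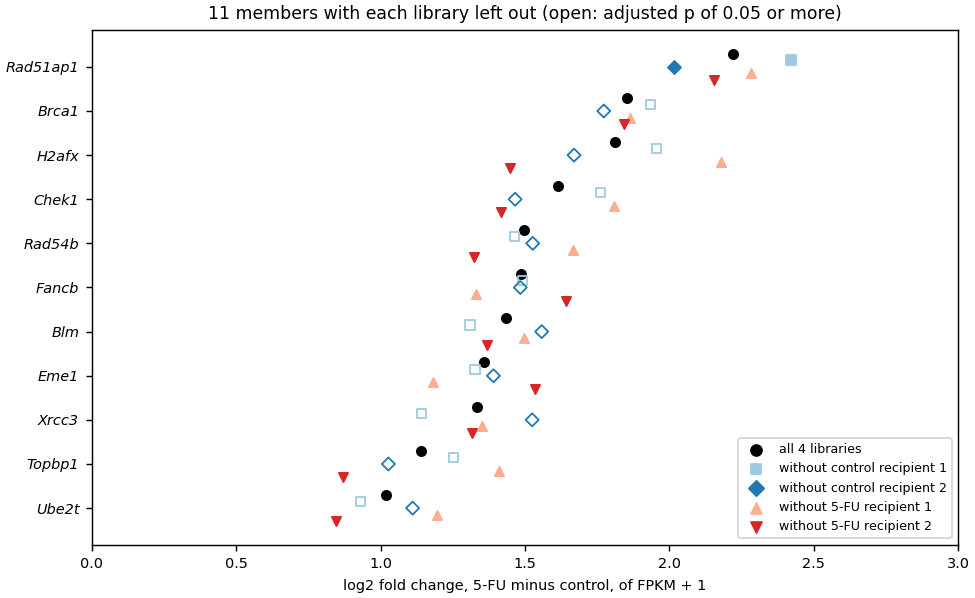
log2 fold change (FPKM + 1, 5-FU minus control) of the 11 members that rose, with all 4 libraries and with each library left out; filled symbols have an adjusted p under 0.05 and open symbols do not. All symbols lie between 0.85 and 2.42, and with a control library left out those of Rad51ap1 alone are filled.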

How the data were processed

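RNA-seq of 4 libraries of sorted mouse cells was analysed, 2 per group, grouped by the sample titles. Per the labels' protocols, cDNA came from the SMART-Seq Ultra Low Input chemistry and was sequenced from a single end. Per the submitters' processing notes, the authors used TopHat2 2.0.13, Bowtie2 2.2.3 and SAMtools 0.1.19 with the mm10 build, and made the deposited FPKM with Cuffnorm 2.2.1; the sources used here do not give its scaling, the annotation or the use of strand. If strand was not used, reads of a gene and of an overlapping gene on the opposite strand cannot be told apart. Beside the overlaps given above, such a gene shares 16.4% of the exon bases of Fancc and 15.4% of Rad54l. The shares were 15% for Fancf, 13.7% for Fancl and 10.5% for Fanca. Library depth is unknown beyond the read steps: after a length correction, 77.2% to 81.7% of low values in genes with 1 transcript fell within 0.15 of a whole read, and read numbers in the text are rough. Reads are not independent molecules, so counting error is a lower limit.

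FPKM were used as deposited, with a pseudocount of 1, and the groups were fitted in R 4.3.3 by limma 3.58.1 (eBayes with trend, two-sided, Benjamini-Hochberg adjustment over all genes tested), which had 2 residual and 5.62 prior degrees of freedom. Of 120 genes in 5 related lists, 118 matched by symbol or, for 8 of them, by a reference synonym. All members are named; of the related lists the 3 genes of smallest p, and in the cell cycle list Mki67, Top2a, Pcna and Ccnb1. The members and lists were chosen with earlier results of these data known. Positions and promoters are RefSeq GRCm38.p6, the build of mm10, and exon overlaps GENCODE M21. Protein sequences were not used here. Figures were drawn with matplotlib 3.10.9.

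The replicate numbers occur in both groups, and same-numbered libraries deviated from their group means with r = −0.159 across genes, so no pairing was used. Other settings tried were a pseudocount of 0.1 or 5, a filter at 5 FPKM or none, scaling by quantiles, to TPM or by median ratios, eBayes run robustly or without its trend, a replicate block, and leaving out each library.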

Additional observations from a re-analysis of the deposited data

How the results depend on the processing

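The 11 members that rose with all libraries also rose with a pseudocount of 0.1, a filter of 5 FPKM, robust eBayes and quantile, TPM or median-ratio scaling, and Exo1 joined them with a pseudocount of 5. Without a trend 9 rose, Ube2t and Topbp1 no longer passing, and over all genes 548 rose and 299 fell against 946 and 537. With no filter 16391 genes were tested, 3 rose and 4 fell, and 0 of 37 members passed by limma. At an unadjusted p under 0.05, 19 members were higher and 1 lower, beside 1946 and 1734 of all genes. The median log2 fold change of the members was 0.52 with a pseudocount of 5, against 0.87, which follows from the larger value added. With a library left out, 1 to 19 members rose and 0 to 1 fell, and over all genes 88 to 2122 rose and 38 to 1876 fell; the cause was not tested.

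With the replicate number as a block 13 members rose, Exo1 and Rad54l being added, and none fell. With the numbers crossed, an alternative chosen after seeing the data, 19 members rose and 1 fell, and over all genes 1686 rose and 1365 fell. Fance is the member that fell there, and also without 5-FU library 1. The 4 control values of Rad51c and Bard1 rest on few reads. At this depth the fold over control was rough for Bard1 and could not be measured for Rad51c.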
